A study of Mus musculus with 6 samples.

Results

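Genes that handle heme and iron were followed in mouse lung tumours labelled control or Keap1 knockout. The 10 genes were chosen by symbol, for their place in heme breakdown, heme and iron transport, iron storage and heme capture. They were chosen with earlier results of these data known, and are 10 of the 56980 gene rows counted. They are the heme oxygenase gene Hmox1, the biliverdin reductase genes Blvra and Blvrb, the ferritin chain genes Ftl1 and Fth1, the ferrochelatase gene Fech, the transporter genes Slc40a1, Slc48a1 and Abcb6, and the hemopexin gene Hpx. None of the 10 was lost to the low-count filter, which left 17901 genes to test.

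The tumours came from a mouse model of small cell lung cancer labelled QKO, a name the labels do not spell out, and were taken about 4 months after virus was given. Messenger RNA was compared between 3 libraries of tumours labelled control and 3 of tumours labelled Keap1 knockout. No source used here states how Keap1 was inactivated or whether each sample is another animal, so the p-values reflect sample-to-sample spread alone, which may be technical. The comparison was made after a screen of 18 putative tumour suppressors, to ask how loss of Keap1 alters transcription in the tumours.

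Heme is an iron-bearing ring that cells build in the mitochondrion, where ferrochelatase inserts the iron. Heme oxygenase opens the ring and releases iron, carbon monoxide and biliverdin, which biliverdin reductases turn into bilirubin. Freed iron is stored in ferritin, a shell of heavy and light chains, or leaves the cell through ferroportin, the product of Slc40a1. KEAP1 is the adaptor through which the transcription factor NRF2 is broken down, and several of these genes are textbook NRF2 targets, Hmox1 and the ferritin genes among them. Hmox1 is also repressed by the heme-sensing factor BACH1.

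Iron controls the messages for ferritin and ferroportin through a hairpin near their start, the iron-responsive element, which binds iron regulatory proteins and so limits translation. The hairpin is shown for the genes that carry it, because Ftl1, Fth1 and Slc40a1 share this control and yet differed in RNA level. The sequences are from GENCODE M21 transcripts (GRCm38), in the 5′ UTR of genes on chromosomes 7, 19 and 1, and are written as DNA with the loop in capitals.

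Ftl1: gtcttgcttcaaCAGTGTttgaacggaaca
Fth1: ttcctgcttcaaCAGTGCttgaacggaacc
Slc40a1: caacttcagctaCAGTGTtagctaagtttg

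The search asked for a C, any 5 bases, the loop CAGTGN without G at its end, and 5 bases that pair with the first 5, G-T pairs included, on the transcript strand. Of 20062 genes with a 5′ UTR of at least 30 bases, 22 held such a hairpin (0.11%), among them 3 of the 10 genes described here. RNA counts do not measure translation, so the hairpins bear on no value below.

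Promoter sequence from RefSeq (build GRCm38.p6, 250 bases before to 50 after the start) was at hand for 6 of the 10 genes, Hpx, Blvra, Blvrb, Ftl1, Fth1 and Abcb6, with 8 promoters in all. The core of the antioxidant response element, TGACNNNGC, to which NRF2 binds with a small MAF partner, was searched on both strands, and overlaps with other motifs were not removed. It occurred in the promoters of Hpx and Blvra and in 12.4% of all 32851 promoters of the table. The bases before the start are shown for these genes, with the match in capitals on the opposite strand, because their RNA differed so much in response. In Hpx (chr7:105600117-105600366, minus strand) the match lay at positions -95 to -87 from the start, and in Blvra (chr2:127070407-127070656, plus strand) at -49 to -41.

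Hpx: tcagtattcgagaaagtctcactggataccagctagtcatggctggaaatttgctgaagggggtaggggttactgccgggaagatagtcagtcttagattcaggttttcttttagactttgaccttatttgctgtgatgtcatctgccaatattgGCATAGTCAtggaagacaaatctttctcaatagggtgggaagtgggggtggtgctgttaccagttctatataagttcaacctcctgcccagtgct
Blvra: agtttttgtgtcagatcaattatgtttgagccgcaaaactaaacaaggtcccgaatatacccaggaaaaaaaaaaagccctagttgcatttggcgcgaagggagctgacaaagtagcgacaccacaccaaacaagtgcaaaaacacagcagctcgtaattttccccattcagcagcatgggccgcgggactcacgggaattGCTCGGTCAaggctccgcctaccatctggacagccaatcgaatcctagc

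A match is a description of letters and shows no binding.

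Libraries held 18731515 to 23759892 counted reads, and no pair of samples agreed within sampling noise. Keap1 itself had overlapping RNA levels in both groups, 58.7 to 78.4 CPM (reads per 1000000 counted, scaled between libraries) in controls and 67.5 to 93.0 CPM in knockouts, which does not check the genotype because a disrupted gene can still be transcribed. The defining markers of the labelled tumour type were abundant in 1 library: 10 neuroendocrine markers summed to 5296 CPM in control 3, 115 and 73.3 CPM in controls 1 and 2 and 54.5 to 214 CPM in knockouts, where Insm1 had no reads in knockouts 2 and 3, nor Chga in knockout 3. Markers of lung epithelium, 9 genes, summed to 820 to 3068 CPM in controls and 3629 to 8202 CPM in knockouts, without overlap. Scgb1a1 led the knockout sums, at 1574 to 5331 CPM there and 119 to 1355 CPM in controls. The list was mixed, with 6 positive and 3 negative log2 fold changes. Foxj1 was lower in every knockout than in every control, at 11.3 to 18.0 against 18.9 to 29.8 CPM. The part of these marked cell types in the results below was not tested. In bulk tumours, fewer cells of a type and less RNA per cell cannot be told apart.

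Of the 10 genes, 4 were higher in the knockout by edgeR's quasi-likelihood test at a Benjamini-Hochberg adjusted p below 0.05, namely Hpx, Blvrb, Ftl1 and Slc48a1, against 2.42% of all tested genes. None was lower past that threshold, against 1.89% of all tested genes. Fech and Slc40a1 were, however, lower with an unadjusted p below 0.05 by edgeR and passed in DESeq2 as run here. Of these, only Slc40a1 passed in the authors' deposited comparison. The groups did not overlap in 9 genes, with the knockouts above in 7 (21.5% of all tested genes) and below in 2 (19.1%), and they overlapped in Fth1. The median log2 fold change of the 10 genes was 1.38, and that of all tested genes was -0.08. Because the genes were chosen with earlier results of these data known, these shares and medians are a description and no test of the set.

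**Figure D1:**
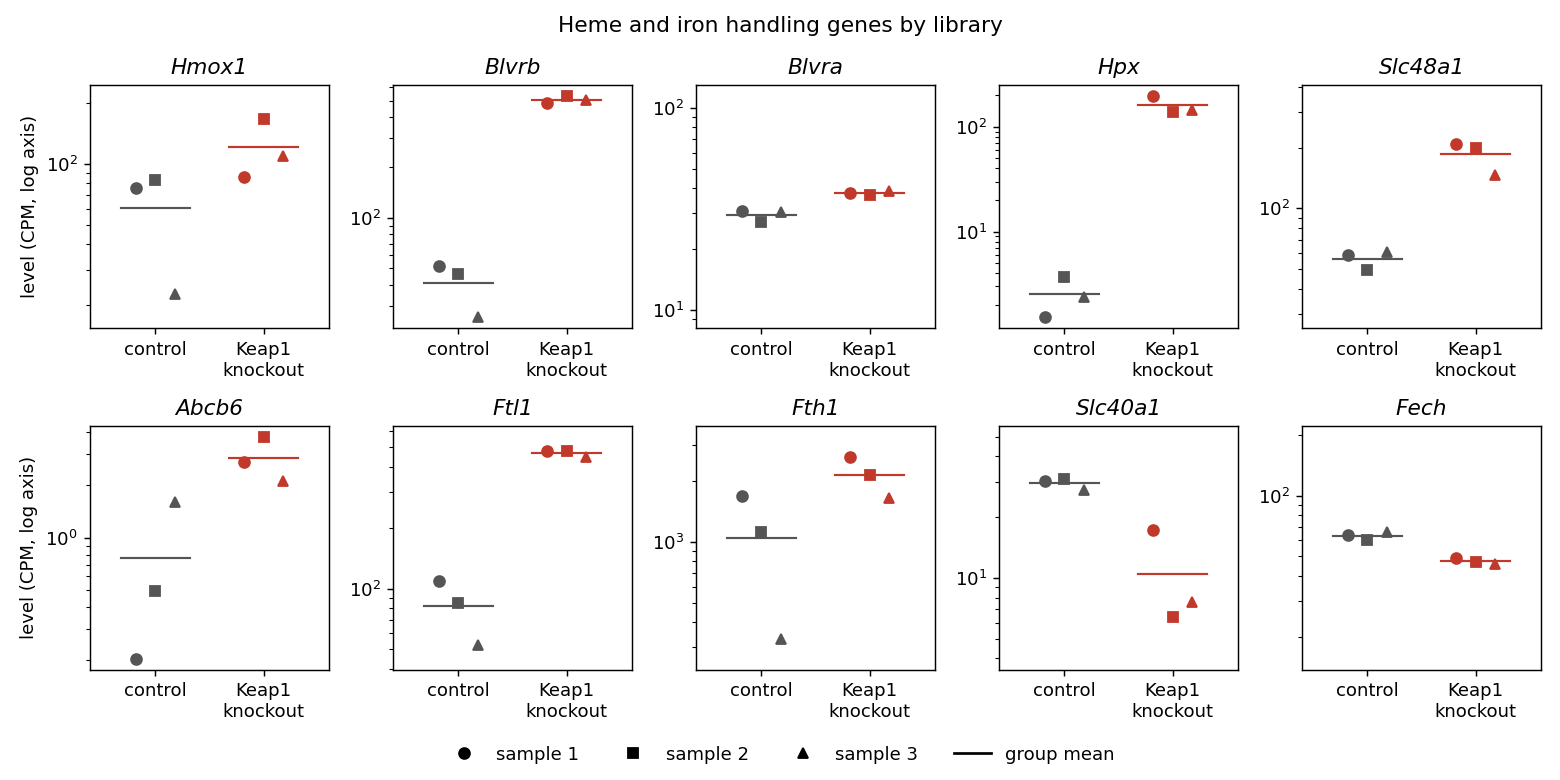
Level of each gene in CPM on a log axis of its own, with 1 symbol per library (circle, square and triangle for samples 1, 2 and 3), control libraries in grey, Keap1 knockout libraries in red and a line at each group mean. The groups are apart in every panel except that of Fth1, where knockout 3 at 1649 CPM lies just below control 1 at 1677 CPM.

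Heme capture gave the largest change. Hpx (ENSMUSG00000030895) encodes hemopexin, a secreted protein that binds free heme in plasma and is made mainly by the liver. Its level was 1.52, 3.67 and 2.39 CPM in controls 1 to 3 (30, 74 and 48 reads) and 196, 139 and 144 CPM in knockouts 1 to 3 (4213, 3041 and 3278 reads). The lowest knockout thus lay far above the highest control, and the spread within each group was small beside the gap. Means were 2.53 ± 1.08 and 160 ± 31.7 CPM (SD, n = 3 each), a 63.1-fold rise. The log2 fold change was 5.98, its standard error (SE) 0.42, and the adjusted p by edgeR 0.0108. With knockout 1, 2 or 3 left out, the adjusted p was 0.0639, 0.127 and 0.1095, at log2 fold changes from 5.72 to 6.37 over all 6 such fits.

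Transcripts of liver cells were read beside Hpx. Alb, the albumin gene, had 636, 1 and 109 reads in knockouts 1 to 3 and 2, 2 and 0 in controls. Knockout 1 had the most Hpx, the most Alb and the highest hepatocyte sum of the knockouts, and knockout 2 had 139 CPM of Hpx and 1 Alb read. The 9 hepatocyte markers summed to 10.9, 13.0 and 156 CPM in the controls, in order, and to 97.4, 22.0 and 23.0 CPM in the knockouts. The transthyretin gene Ttr made up most of that sum in every library except knockout 1, where it had 46.7 CPM. In control 3 it was nearly all of the sum, at 152 CPM, and Hpx there was 2.39 CPM. Of 3 hepatocyte markers tested, 2 had positive and 1 negative log2 fold changes, and edgeR called 0. Fga, a fibrinogen gene, had 270, 18 and 56 reads in knockouts 1 to 3 and 9, 5 and 0 in controls 1 to 3. The part of liver transcripts in the Hpx levels was not tested.

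In heme breakdown, 1 of the 3 genes, Blvrb, passed the test, and Blvra and Hmox1 did not. Blvrb (ENSMUSG00000040466) encodes biliverdin reductase B, a flavin reductase that uses NADPH and has its best known bilirubin role in fetal life. Its level was 51.6, 46.5 and 25.6 CPM in controls and 481, 532 and 507 CPM in knockouts. Knockout libraries lay within a narrow band, and control 3 was the lowest of all. The mean rose from 41.2 ± 13.8 to 507 ± 26.0 CPM (SD, n = 3 each), 12.3-fold. On the log2 scale this was 3.62 ± 0.32 (SE), and edgeR put the adjusted p at 0.0171. Leaving out knockout 1, 2 or 3 raised it to 0.0975, 0.153 and 0.150, while the log2 value stayed between 3.37 and 3.82.

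Blvra (ENSMUSG00000001999), the biliverdin reductase of adult tissue, had 30.9, 27.2 and 30.3 CPM in controls and 37.9, 37.0 and 38.7 CPM in knockouts. The groups did not overlap, but the gap was small. Its log2 fold change, 0.36 ± 0.17 (SE), missed the threshold (edgeR adjusted p 0.213). No alternative of the 16 run on this gene called it.

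Hmox1 (ENSMUSG00000005413), which encodes the inducible heme oxygenase, stood at 75.7, 83.5 and 22.7 CPM in controls and at 86.5, 167 and 110 CPM in knockouts. Knockout 1 exceeded control 2 by little, and control 3 was well below the other controls. Means were 60.6 ± 33.1 and 121 ± 41.2 CPM (SD, n = 3 each), and the log2 fold change of 1.00 ± 0.52 (SE) did not pass (adjusted p of 0.248 by edgeR, 0.199 to 0.521 with 1 library left out). Without control 3 the log2 fold change was 0.61, and without control 2 it was 1.31. Macrophages, which clear red cells and use heme oxygenase, were read through 15 markers, and these summed to 429 CPM in control 3, the library lowest in Hmox1, and to 1388 CPM in knockout 2, the highest in Hmox1. They summed to 1297 and 1799.9 CPM in controls 1 and 2 and to 695 and 859 CPM in knockouts 1 and 3. A single gene, Lyz2, made up most of the sum in each knockout and a smaller share in each control. Lyz2 had 458, 599 and 90.4 CPM in controls 1 to 3 and 397, 1004 and 496 CPM in knockouts 1 to 3. The lung epithelium markers also summed highest in knockout 2, at 8202 CPM, and lowest in control 3, at 820 CPM. Which cells held the Lyz2 RNA was not tested. What part macrophages had in the Hmox1 levels was not tested.

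**Figure D2:**
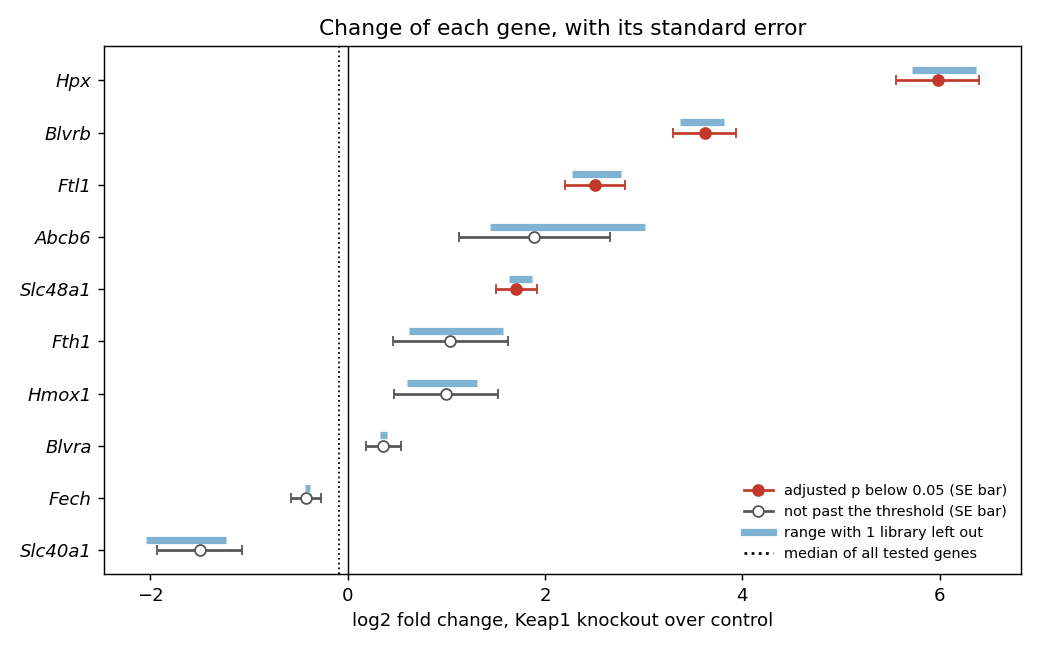
Log2 fold change of each gene, Keap1 knockout over control, with its standard error; filled red points passed an adjusted p of 0.05 by edgeR, blue bars span the values with 1 library left out, and the dotted line is the median of all tested genes, -0.08. Hpx lies farthest to the right at 5.98, Slc40a1 farthest to the left at -1.50, and no blue bar crosses 0.

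Heme and porphyrins are moved by Slc48a1 and Abcb6. Slc48a1 (ENSMUSG00000081534) encodes HRG1, which moves heme out of endosomes and lysosomes into the cytosol. Levels were 59.0, 49.7 and 60.6 CPM in controls and 209, 199 and 146 CPM in knockouts. All knockouts were above all controls, with knockout 3 the lowest of its group. The mean rose 3.27-fold, from 56.5 ± 5.88 to 185 ± 33.6 CPM (SD, n = 3 each). This is 1.71 ± 0.21 (SE) in log2 units, and the edgeR adjusted p was 0.0281. It was 0.0526 without control 2 and 0.126, 0.196 and 0.154 without knockouts 1, 2 and 3 in turn, with log2 values between 1.64 and 1.87.

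Abcb6 (ENSMUSG00000026198), an ATP-driven porphyrin transporter, was the least abundant of the genes, with 4, 10 and 32 reads in controls and 58, 82 and 48 in knockouts. As levels these were 0.203, 0.495 and 1.59 CPM against 2.70, 3.75 and 2.11 CPM. Control 3 came close to knockout 3, and the other controls were far lower. The log2 fold change of 1.89 ± 0.77 (SE) did not pass (adjusted p of 0.160 by edgeR), whereas without control 3 it was 3.01 and passed, at 0.0321. In GENCODE M21, 88.9% of the 50-base stretches of Abcb6 messages also belong to Gm29253, which had no reads in any library. The level of Abcb6 is uncertain, because no source used here says how reads that fit both were counted.

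Of the ferritin chain genes, Ftl1 passed the test and Fth1 did not. Ftl1 (ENSMUSG00000050708) encodes the light chain, which helps form the iron core, and had 109, 85.3 and 52.6 CPM in controls and 480.3, 477 and 449 CPM in knockouts. Knockouts differed little among themselves and were all several times the highest control. The mean rose from 82.3 ± 28.4 to 469 ± 17.4 CPM (SD, n = 3 each), 5.69-fold. The log2 value was 2.51 ± 0.30 (SE) and passed in edgeR, at an adjusted p of 0.0283. The adjusted p was 0.0587 without control 2 and 0.129, 0.196 and 0.175 without knockouts 1, 2 and 3 in turn, at log2 values from 2.27 to 2.77.

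Fth1 (ENSMUSG00000024661) encodes the heavy chain, the ferroxidase that oxidises iron as it enters the shell. It had 1677, 1115 and 330.4 CPM in controls and 2634, 2149 and 1649 CPM in knockouts. Control 3 was again the lowest library, and control 1 lay above knockout 3. The log2 fold change of 1.04 ± 0.58 (SE) did not pass (adjusted p of 0.272 by edgeR), and ran from 0.62 without control 3 to 1.58 without control 1.

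Within a library, the ratio of the chains needs no scaling and no gene length to be compared between groups. For every 100 Fth1 reads, controls 1 to 3 held 6.51, 7.65 and 15.9 Ftl1 reads, and knockouts 1 to 3 held 18.2, 22.2 and 27.2. Every knockout lay above every control, although control 3 and knockout 1 were close. On the log2 scale the ratio was -3.43 ± 0.69 in controls and -2.17 ± 0.29 in knockouts (SD, n = 3 each), a difference of 1.27 or 2.40-fold, with a two-sided exact permutation p of 0.1, the smallest that 3 against 3 allows.

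Ferritin light chain has many processed copies in the mouse genome. Of the 50-base stretches in Ftl1 messages, 86.2% also occurred in transcripts of 17 other GENCODE M21 genes, against 3.59% for Fth1 and none for Hmox1, Blvra, Blvrb, Slc40a1, Slc48a1 and Hpx. The 12 of these 17 in the count table held 528, 475 and 493 reads in knockouts beside 10302, 10424 and 10210 on Ftl1, and 142, 85 and 56 in controls beside 2150, 1721 and 1056. With them added, the log2 fold change was 2.50 and the edgeR adjusted p 0.0283, an alternative chosen after the data were seen. No source used here says how reads that fit several genes were counted, so the level of Ftl1 beside other genes is uncertain.

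**Figure D3:**
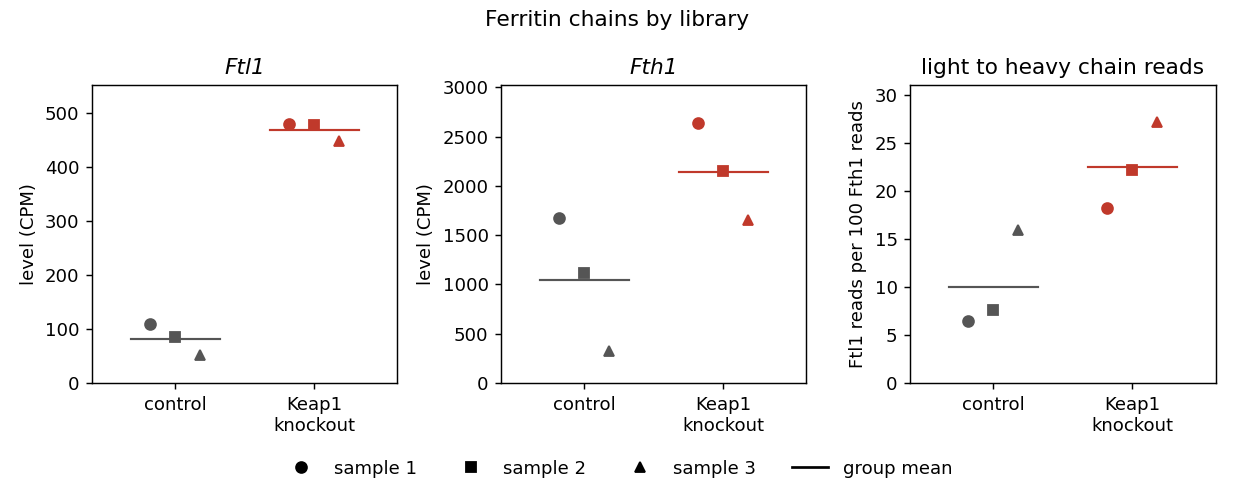
Ferritin light chain (Ftl1) and heavy chain (Fth1) levels in CPM and Ftl1 reads per 100 Fth1 reads, each axis from 0, with 1 symbol per library and a line at each group mean. Ftl1 is far apart between the groups, Fth1 overlaps, and the ratio runs from 6.51 to 15.9 in controls and from 18.2 to 27.2 in knockouts.

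Slc40a1 and Fech had negative log2 fold changes that did not pass in edgeR and passed in DESeq2 as run here. Slc40a1 (ENSMUSG00000025993), ferroportin, is the sole known exporter of iron from mammalian cells and had 30.1, 31.0 and 27.1 CPM in controls and 17.2, 6.41 and 7.60 CPM in knockouts. Controls were close together, and knockout 1 stood between them and the other knockouts. Its log2 fold change, -1.50 ± 0.43 (SE), missed the threshold in edgeR (adjusted p 0.0868, and 0.0713 to 0.286 with 1 library left out). Without knockout 1 it was -2.04. DESeq2 called it, at an adjusted p of 0.0072.

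Macrophages are rich in ferroportin, so their markers were read beside it. Of 14 macrophage markers tested, none passed in edgeR or limma voom, 8 had an unadjusted p below 0.05 by edgeR (30.7% of all tested genes), and DESeq2 called 7 lower (14.4% of all tested genes). The log2 fold change was negative in 11 and positive in 3, and in 6 every knockout lay below every control (19.1% of all tested genes). The positive ones were Marco, Siglecf and Lyz2, the marker of highest mean CPM. The mean of Lyz2 was 382 ± 263 CPM (SD, n = 3) among controls against 632 ± 326 CPM (SD, n = 3) among knockouts. The complement genes C1qb and C1qc were among the 6, with 59.4 to 139 and 44.4 to 113 CPM in controls and 27.7 to 40.4 and 24.3 to 28.0 CPM in knockouts. The summed level of all 15 markers overlapped, at 429 to 1799.9 CPM in controls and 695 to 1388 CPM in knockouts. Lyz2 made up most of that sum in each knockout and a smaller share in each control. Vsig4 and Siglecf were at 0 in control 3. The part of macrophages in the Slc40a1 levels was not tested.

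Fech (ENSMUSG00000024588), ferrochelatase, had 63.9, 60.0 and 66.0 CPM in controls and 49.3, 46.8 and 46.1 CPM in knockouts. Both groups were tight and did not overlap. The log2 fold change of -0.42 ± 0.15 (SE) did not pass in edgeR (adjusted p of 0.131) and did in DESeq2 as run here (0.0054). It did not pass in the authors' deposited DESeq2 comparison, where the adjusted p was 0.118.

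**Figure D4:**
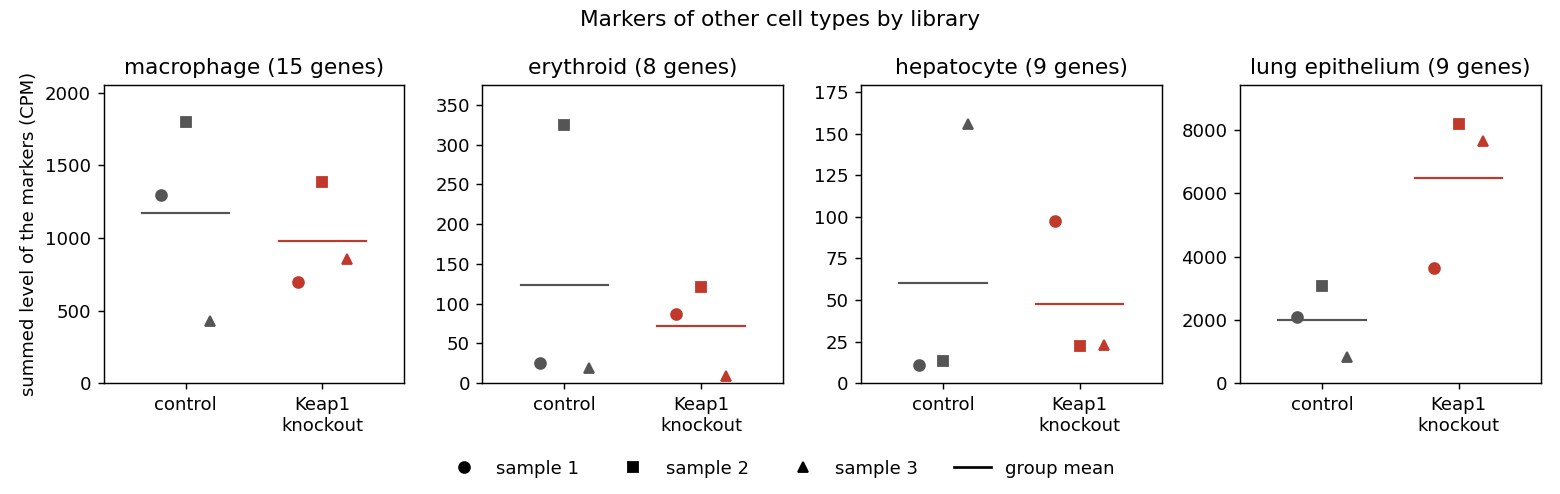
Summed level in CPM of the markers of 4 other cell types, each axis from 0, with 1 symbol per library and a line at each group mean. The groups overlap for macrophage, erythroid and hepatocyte markers and are apart for lung epithelium, at 820 to 3068 CPM in controls and 3629 to 8202 CPM in knockouts. Of the lung epithelium genes, 6 had positive and 3 negative log2 fold changes.

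Levels were compared between genes only per kilobase of the principal GENCODE M21 transcript. In controls Fth1 was far the most abundant, at 1120 ± 728 CPM per kb, followed by Ftl1 at 85.0 ± 29.3, Blvrb at 40.1 ± 13.4 and Hmox1 at 38.6 ± 21.1 CPM per kb (SD, n = 3). Blvrb and Hmox1 did not differ there beyond their spread. Hpx, at 1.69 ± 0.72 CPM per kb, was above Abcb6 alone. In knockouts Fth1 was at 2308 ± 530.1 CPM per kb, and Blvrb (493 ± 25.3) and Ftl1 (484 ± 18.0) followed at levels that did not differ beyond their spread. Hpx came next at 107 ± 21.2 CPM per kb, ahead of Hmox1 at 77.1 ± 26.2 and Slc48a1 at 72.9 ± 13.3 CPM per kb, and neighbours in that order did not differ beyond their spread.

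Other genes of heme and iron metabolism were followed in 5 lists of 80 genes, chosen with earlier results of these data known. Of the 76 tested, edgeR called 7 (9.21%, against 4.31% of all tested genes), and DESeq2 called 31 (40.8%, against 25.9%). In heme synthesis (13 tested, median log2 fold change of 0.49) edgeR called 0 genes, and 7 had an unadjusted p below 0.05, as did 30.7% of all tested genes. DESeq2 called 6 higher and 1 lower (11.5% and 14.4% of all tested genes), and limma voom 1 higher (3.71%). The smallest p belonged to Ppox, protoporphyrinogen oxidase, at 34.6 ± 12.2 and 84.7 ± 13.9 CPM in controls and knockouts (SD, n = 3 each), and to Alad, the second enzyme of the route, at 51.4 ± 37.6 and 212 ± 14.1 CPM. Their adjusted p were 0.0637 and 0.0720 by edgeR. Erythroid markers, 8 genes, summed to 19.1 to 325 CPM in controls and 8.44 to 121 CPM in knockouts.

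In the list of other heme breakdown, binding and transport genes (14 tested, median -0.14), 1 rose and 1 fell by edgeR, against 2.42% and 1.89% of all tested genes. Abcc5, an exporter of organic anions also tied to heme transport, rose from 108 ± 56.1 to 990.4 ± 160.3 CPM, and Lrp1, the endocytic receptor that takes up heme bound to hemopexin, fell from 464 ± 133 to 119 ± 16.2 CPM (SD, n = 3 each). Their adjusted p were 0.0314 and 0.0340 by edgeR. Between the groups Lrp1 was thus lower and Hpx higher in knockouts. Among the knockouts, however, knockout 1 had the most of both, at 196 CPM of Hpx and 138 CPM of Lrp1. Knockouts 2 and 3 had 109 and 111 CPM of Lrp1. Whether the levels of these genes are related was not tested.

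Iron uptake, storage and export (21 of 24 tested, median -0.01) held 2 genes that rose and 2 that fell by edgeR. Over all tested genes these shares were 2.42% and 1.89%. Tmprss6, a protease that restrains hepcidin signalling in the liver, rose from 0.517 ± 0.291 to 25.4 ± 17.8 CPM, with 45.8, 13.1 and 17.2 CPM in knockouts 1 to 3. Slc25a28 (mitoferrin 2), an importer of iron into mitochondria, rose from 39.5 ± 5.57 to 106 ± 3.77 CPM. Ncoa4, the receptor that takes ferritin to the lysosome for breakdown, fell from 52.6 ± 8.84 to 19.8 ± 2.03 CPM, or -1.41 ± 0.21 (SE) in log2 units (edgeR adjusted p 0.0359). Cp, ceruloplasmin, a copper ferroxidase that works with ferroportin, fell from 131 ± 43.6 to 41.4 ± 11.2 CPM (SD, n = 3 each), with an adjusted p of 0.0478 by edgeR.

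Among 10 iron and heme sensors and NRF2 partners (median 0.20), 1 passed as higher, against 2.42% of all tested genes. It was Maff, a small MAF partner of NRF2 and BACH1, which rose from 23.7 ± 4.24 to 57.4 ± 8.87 CPM (SD, n = 3 each). Its adjusted p was 0.0436 by edgeR. Of 18 iron-sulfur cluster genes tested (median 0.44), 17 had positive log2 fold changes, against 46.1% of all tested genes. In that list edgeR and limma voom called 0, DESeq2 called 7 higher (11.5% of all tested genes), and 7 had an unadjusted p below 0.05 by edgeR, a share near the 30.7% of all tested genes. The smallest p was that of the assembly gene Isca1, at 0.85 ± 0.18 (log2 fold change, SE; edgeR adjusted p 0.0553).

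**Figure D5:**
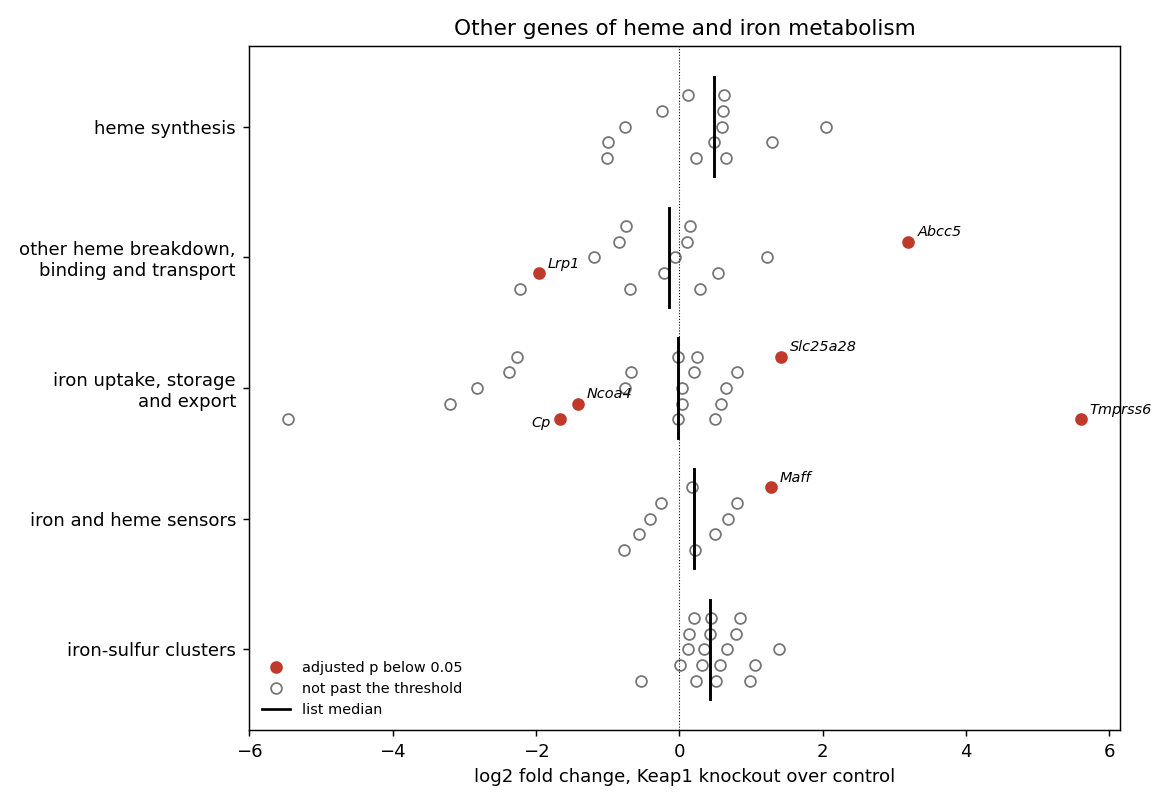
Log2 fold change, Keap1 knockout over control, of every tested gene of 5 lists of heme and iron metabolism, with filled and named points for those past an adjusted p of 0.05 by edgeR and a bar at each list median. Abcc5, Slc25a28, Tmprss6 and Maff lie to the right, Lrp1, Ncoa4 and Cp to the left, and the list medians lie between -0.14 and 0.49.

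The profiles most like those of Hpx, Hmox1 and Slc40a1 were sought among 12704 genes with a mean of at least 5 CPM, by the root mean square difference of centred log2 CPM over the 6 libraries. For Hpx these were Gstm2-ps1, Gstm1 and Slc5a5, with differences of 0.30, 0.39 and 0.51. For Hmox1 they were Kremen2, Elovl1 and Trib3 (0.17, 0.17 and 0.18), and for Slc40a1 Prkce, Npas2 and Arhgef10l (0.23, 0.23 and 0.24). The measure is a description over 6 libraries in 2 groups.

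Calls depended on the test and on single libraries. The authors' deposited table gave an adjusted p below 0.05 for Hpx, Blvrb, Ftl1 and Slc48a1 as higher, against 7.1% of its 22441 genes, and for Slc40a1 as lower, against 10.7%. DESeq2 called the same 4 higher (11.5% of all tested) and Slc40a1 and Fech lower (14.4%), and limma voom the same 4 higher (3.71%) and none lower (2.25%), with Slc40a1 at an adjusted p of 0.0556. With edgeR, 4 of the genes were called without control 1 (3.91% of all tested), 2 without control 2 (1.42%), namely Hpx and Blvrb, and 5 without control 3 (17.2%). None was called without knockout 1 (0.0106%), 2 or 3 (0% each), where 5, 5 and 4 of them had an unadjusted p below 0.05, as did 19.9%, 17.7% and 17.5% of all genes tested in those fits. With the level of Xist, an RNA of female tissue, as a term, an alternative chosen after the data were seen, Hpx alone passed, at an edgeR adjusted p of 0.0397. In each of these fits every one of the 10 genes kept the sign of its log2 fold change.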

How the data were processed

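Gene expression was measured by messenger RNA sequencing in 3 tumour samples labelled control and 3 labelled Keap1 knockout. The authors deposited raw read counts per Ensembl gene, from STAR alignments to mm39, per the submitters' processing notes. No source used here gives the counting tool, annotation or strand setting. The authors' deposited comparison gives the mean signal (mean count scaled by size factors), log2 fold changes with errors, a test score (the Wald statistic) and raw and adjusted p-values; the submitters' processing notes name DESeq2.

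Symbols came from a table that named 52073 of 56980 identifiers. Counts were filtered with filterByExpr, scaled by TMM and tested over all genes kept with edgeR 4.0.16 (R 4.3.3, robust quasi-likelihood, genotype as the only term, two-sided), with Benjamini-Hochberg adjustment and a threshold of 0.05. The SE is the absolute log2 fold change over the root of the F statistic. Levels are CPM over TMM-scaled totals, and centred profiles used log2 CPM at a prior count of 2. The step was checked on simulated counts. Alternatives were DESeq2 1.42.0, limma voom (3.58.1), other scalings and filters, each sample left out, the sample number as a block, ferritin rows summed with pseudogenes and, added after the data were seen, rows sharing sequence summed, a spread per genotype and the Xist level as a term.

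Members and lists were chosen with earlier results of these data known. The text names all members, Keap1, in each heme or iron list up to 4 genes past the threshold or otherwise the 2 with the smallest p, and the 3 genes closest in profile to Hpx, Hmox1 and Slc40a1, except 1 gene that is not reported here. Genes named for markers or in the last section were picked after their values were seen. The reference annotation is of an earlier build than mm39, so it gave sequences and lengths only. Of markers and lists, Hjv, Fdx2 and Ahsp matched no row, and Ftmt and Hephl1 were not tested. Endothelial markers (9 genes) summed to 191 to 573 CPM in controls and 221 to 340 CPM in knockouts, fibroblast markers (9) to 528 to 34753 and 412 to 1157 CPM, and lymphocyte markers (10) to 5.48 to 27.5 and 7.47 to 12.1 CPM.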

Additional observations from a re-analysis of the deposited data

How the results depend on the processing

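No result reversed under any alternative run. Over the 10 genes, 141 of the single-gene values kept their side of the threshold, 21 lost the call and 3 gained it (Fech and Slc40a1 in DESeq2, Abcb6 without control 3). edgeR called 771 genes of all tested, 465 without the filter, 27 with the Xist level as a term and 0 with the sample number as a replicate block, and DESeq2 called 4642. Leaving out 1 sample gave 0 to 3209. Of the 10 genes, 1 (Hpx) was called with the Xist term and 0 with the replicate block, where 6 had an unadjusted p below 0.05, and 0 to 5 with 1 sample left out. On the other heme and iron lists DESeq2 called 31 genes against 7. The median log2 fold change of the 10 genes ran from 1.19 to 1.55 with 1 sample left out and was 1.50 with the block, and the log2 ratio of Ftl1 to Fth1 reads differed by 1.01 to 1.66 with 1 sample left out. Deviations of same-numbered samples from their group means had correlations of 0.0176, 0.00012 and 0.0507 across genes. Controls 1 and 3 correlated best with the knockout of their own number, and control 2 did not. With 3 samples per group, such small correlations cannot decide whether the numbers pair the samples. Low read numbers limit Abcb6, and shared sequence limits Ftl1 and Abcb6.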

Other observations

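Iron-binding and heme-bearing genes outside the 10 differed sharply between single control libraries. Ltf, which encodes the iron-binding secreted protein lactoferrin, stood at 6659 CPM in control 1, at 79.4 and 94.2 CPM in controls 2 and 3 and at 18.2 to 93.9 CPM in knockouts. Globin transcripts were highest in control 2: Hbb-bs had 151 CPM there, 13.3 and 9.61 CPM in controls 1 and 3, and 45.9, 64.9 and 2.51 CPM in knockouts 1 to 3. Alas2, the erythroid enzyme that starts heme synthesis, was also highest in control 2, at 9.07 CPM, against 0.812 to 2.89 CPM in the other libraries. Tfrc, the transferrin receptor gene, whose message is stabilised by iron regulatory proteins, had 173, 161 and 388 CPM in controls and 239, 298 and 319 CPM in knockouts, with control 3 above all knockouts and a log2 fold change of 0.25 ± 0.39 (SE).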
